A study of Rattus norvegicus with 54 samples.

Results

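Gastrocnemius muscle of obese Zucker rats that had received a ligand of the nuclear receptor PPARgamma was compared with gastrocnemius muscle of untreated lean rats. The comparison used 15 of the 54 arrays of the series, 12 from ligand-treated obese rats and 3 from lean rats, chosen by the tissue, genotype and ligand given in their labels. All rats were male. The lean rats were heterozygous (fa/+), so they carried 1 copy of the fa mutation of the leptin receptor, and their labels give normal chow. The treated rats were homozygous (fa/fa) and had received pioglitazone, rosiglitazone, troglitazone or AG035029, with 3 arrays for each. Pioglitazone, rosiglitazone and troglitazone are thiazolidinediones, drugs that activate PPARgamma and raise insulin sensitivity, whereas AG035029 stands here under its code name alone. Each array was probed with pooled RNA of 2 rats, so differences between single animals are not visible. The labels used here give no dose, treatment time or age. Genotype and ligand changed together in this comparison and cannot be told apart within it, so the 3 arrays of untreated obese muscle are given beside the results although they did not enter the contrast.

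PPARgamma binds DNA as a heterodimer with a retinoid X receptor, often at repeats of the letters AGGTCA, and switches on genes of fatty acid uptake, binding and storage. It is most abundant in adipocytes and much scarcer in skeletal muscle, the tissue that takes up most of the glucose cleared after a meal. The fa mutation impairs the leptin receptor, and fa/fa rats overeat, store fat in many tissues and become insulin resistant.

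Signals are the authors' linear MAS5 signals, in which probe sets under about 50 lie near background, and differences are on the log2(signal + 20) scale with standard errors (SE) from limma. A probe set is called here when limma's Benjamini-Hochberg adjusted p over the 9519 probe sets tested was under 0.05. Median signals ran from 191 to 232 over the 18 muscle arrays, array pairs correlated at 0.906 to 0.942, and 0 pairs held identical values. All 22 skeletal muscle marker genes on the list were measured and 0 of the 22 were called, with a median difference of -0.03, and their summed signal ran from 612086 to 1110734 in ligand arrays and from 786758 to 866084 in lean arrays. Some arrays stood apart in other cell markers. The summed signal of 17 adipocyte marker genes was 63136 in pioglitazone array 1, 99021 in troglitazone array 1 and 69348 in troglitazone array 2, against a median of 29296 over the 12 ligand arrays. The summed signal of 15 slow fibre genes was lowest in lean array 3 (77862), untreated obese array 1 (47427), troglitazone array 1 (82409) and AG035029 array 2 (74277). Counts are therefore also given without these arrays.

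Muscle of ligand-treated obese rats differed from lean muscle mostly by higher transcripts, and the largest differences were in retinoid binding and fatty acid synthesis. Of the 9519 probe sets tested, 106 were called, which is 1.11% of those tested, with 77 higher (0.809%) and 29 lower (0.305%). They carried 78 distinct gene symbols. The highest called transcripts were Rbp7, which encodes a cellular retinol-binding protein, and Scd, Thrsp and Fasn of fatty acid synthesis, all above a log2 difference of 4. The lowest were Tfrc, Dbp, Igfbp5 and Aqp1. In bulk muscle, fewer cells of a type and less RNA per cell cannot be told apart. The median over all probe sets tested was -0.043, and 1058 probe sets had an unadjusted p under 0.05. With arrays centred on their medians the split was 87 higher and 18 lower. Of the 106, 76 had no overlap between the ligand and lean arrays (56 higher and 20 lower), and of all tested probe sets 1.91% had none (0.945% with ligand arrays higher and 0.966% lower). Over all tested probe sets 0.704% had no overlap between ligand and untreated obese arrays. The count of calls was 68 without lean array 1, 46 without lean array 2 and 45 without lean array 3, so each single lean array weighed heavily. Without the 3 arrays of high adipocyte signal it was 79 higher and 41 lower, and without the 4 arrays of low slow fibre signal 42 higher and 11 lower. Lean array 3 is 1 of those 4, and without it alone there were 36 higher and 9 lower. Lower counts without the 4 arrays, here and in the lists below, therefore cannot be told apart from the loss of a lean array.

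Promoter sequences are shown for 3 called genes. Rbp7 had the largest difference and holds no match to AGGTCA, while Pck1 and Retsat hold 1 match each. The windows are RefSeq's, of build GRCr8, and run 5′ to 3′ on the gene's strand from 250 bases before to 50 bases after the annotated start. Capitals mark AGGTCA. Rbp7 lies on the minus strand at chr5:165177350-165177649, Pck1 on the plus strand at chr3:182348322-182348621 and Retsat on the plus strand at chr4:106211209-106211508.
Rbp7: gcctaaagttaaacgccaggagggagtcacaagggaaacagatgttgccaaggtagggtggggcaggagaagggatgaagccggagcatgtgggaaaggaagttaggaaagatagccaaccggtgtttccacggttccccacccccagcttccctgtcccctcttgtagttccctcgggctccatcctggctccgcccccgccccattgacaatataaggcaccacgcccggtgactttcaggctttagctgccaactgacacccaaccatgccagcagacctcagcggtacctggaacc
Pck1: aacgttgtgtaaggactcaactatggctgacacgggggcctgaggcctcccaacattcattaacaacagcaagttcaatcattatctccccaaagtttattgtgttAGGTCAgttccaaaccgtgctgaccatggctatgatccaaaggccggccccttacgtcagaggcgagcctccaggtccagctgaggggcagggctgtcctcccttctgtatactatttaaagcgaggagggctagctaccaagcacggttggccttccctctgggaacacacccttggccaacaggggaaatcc
Retsat: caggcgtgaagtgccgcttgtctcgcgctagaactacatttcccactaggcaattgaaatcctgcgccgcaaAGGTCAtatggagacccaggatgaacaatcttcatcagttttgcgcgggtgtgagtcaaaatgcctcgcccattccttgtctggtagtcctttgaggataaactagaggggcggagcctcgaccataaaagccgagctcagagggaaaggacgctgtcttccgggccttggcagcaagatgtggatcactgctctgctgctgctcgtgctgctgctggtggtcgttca
The match in Pck1, the cytosolic phosphoenolpyruvate carboxykinase, which forms phosphoenolpyruvate from oxaloacetate, a step toward glycerol phosphate in fat cells, begins 144 bases before the start, and the match in Retsat, a retinol saturase, begins 178 bases before it. AGGTCA on either strand occurs in 16.2% of the 33469 windows searched and in 748 of the 5906 tested genes that have a window, 12.7%. It occurs in 9 of 45 called higher genes with a window, namely Fhl3, G3bp2, Herpud1, Pck1, Retsat, Slc27a1, Slc6a6, Terf2ip and Tinagl1, and in 2 of 18 called lower genes, Amotl1 and Palld. The direct repeat of AGGTCA with 1 base between its copies, which contains the shorter motif, occurs in 18 windows (0.0538%) and in 0 of the tested genes. Fabp4, Fasn and Aqp7 had no window in the table used. A match is a description of letters and no evidence of binding.

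Transcripts of the receptor itself did not pass the test against lean muscle. Pparg signals were 314.3, 212.9 and 294.4 in lean arrays and ran from 64.5 (AG035029 array 1) through a median of 243.1 to 364.3 in ligand arrays, a difference of -0.20 ± 0.32 (SE, limma adjusted p = 0.879). In untreated obese muscle the signals were 31.4, 48.2 and 51.3, all below every lean and every ligand array, although the difference from lean (-2.20) did not pass the test (limma adjusted p = 0.0837). The ligand mean lay 2.01 above untreated obese muscle (limma adjusted p = 0.00278). Pparg thus stood near the lean level in all ligand arrays except AG035029 array 1, and near background in untreated obese arrays. Of the 16 measured receptors and partner genes on the list, 0 were called, Ppard differed by 0.09 ± 0.15 and Lepr, the leptin receptor, by 0.03 ± 0.33. Ppara lay below the filter, with signals of 10.8 to 26.6 in ligand arrays.

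Retinoid binding gave the largest single difference. Rbp7 signals were 81.4, 85.3 and 29.2 in lean arrays and 85.6, 172.3 and 83.3 in untreated obese arrays. Pioglitazone arrays held 4570.6, 2754.4 and 2758.0, rosiglitazone arrays 2781.7, 659.8 and 1882.1, troglitazone arrays 3539.4, 4236.4 and 3132.2, and AG035029 arrays 2205.0, 2369.8 and 2832.2. Every ligand array lay above every untreated array, lean or obese, and the lowest was rosiglitazone array 2. The ligand mean exceeded lean by 5.01 ± 0.31 (limma adjusted p = 7.89e-09) and untreated obese muscle by 4.34 (limma adjusted p = 1.04e-07), while untreated obese muscle differed from lean by 0.67 (limma adjusted p = 0.997). Because lean signals lie near background, the size depends on the added constant and ran from 4.22 to 5.32 over 31 alternatives, in all of which Rbp7 stayed called. Retsat, which makes dihydroretinol, rose by 1.47 ± 0.33 (limma adjusted p = 0.0285), from 791.9 to 1227.7 in lean arrays to a median of 2618.8 in ligand arrays, and lost its call without lean array 1, 2 or 3 and without the 3 arrays of high adipocyte signal (1.19) or the 4 of low slow fibre signal (1.08). Rbp4, the retinol carrier of plasma, rose by 2.99 ± 0.58 (limma adjusted p = 0.00936), but its ligand signals spread up to 2764.7 from as low as 79, overlapped the lean range of 18.6 to 106.7, and the call was lost without lean array 2. Aldh1a2, which makes retinoic acid, fell by 0.74 ± 0.16 on the log2 scale (limma adjusted p = 0.023), a call lost without lean array 1, 2 or 3. Its untreated obese signals of 428.1 to 549.7 lay within the ligand range of 318.2 to 642.9, and lean arrays held 673.2 to 817.5.

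**Figure D1:**
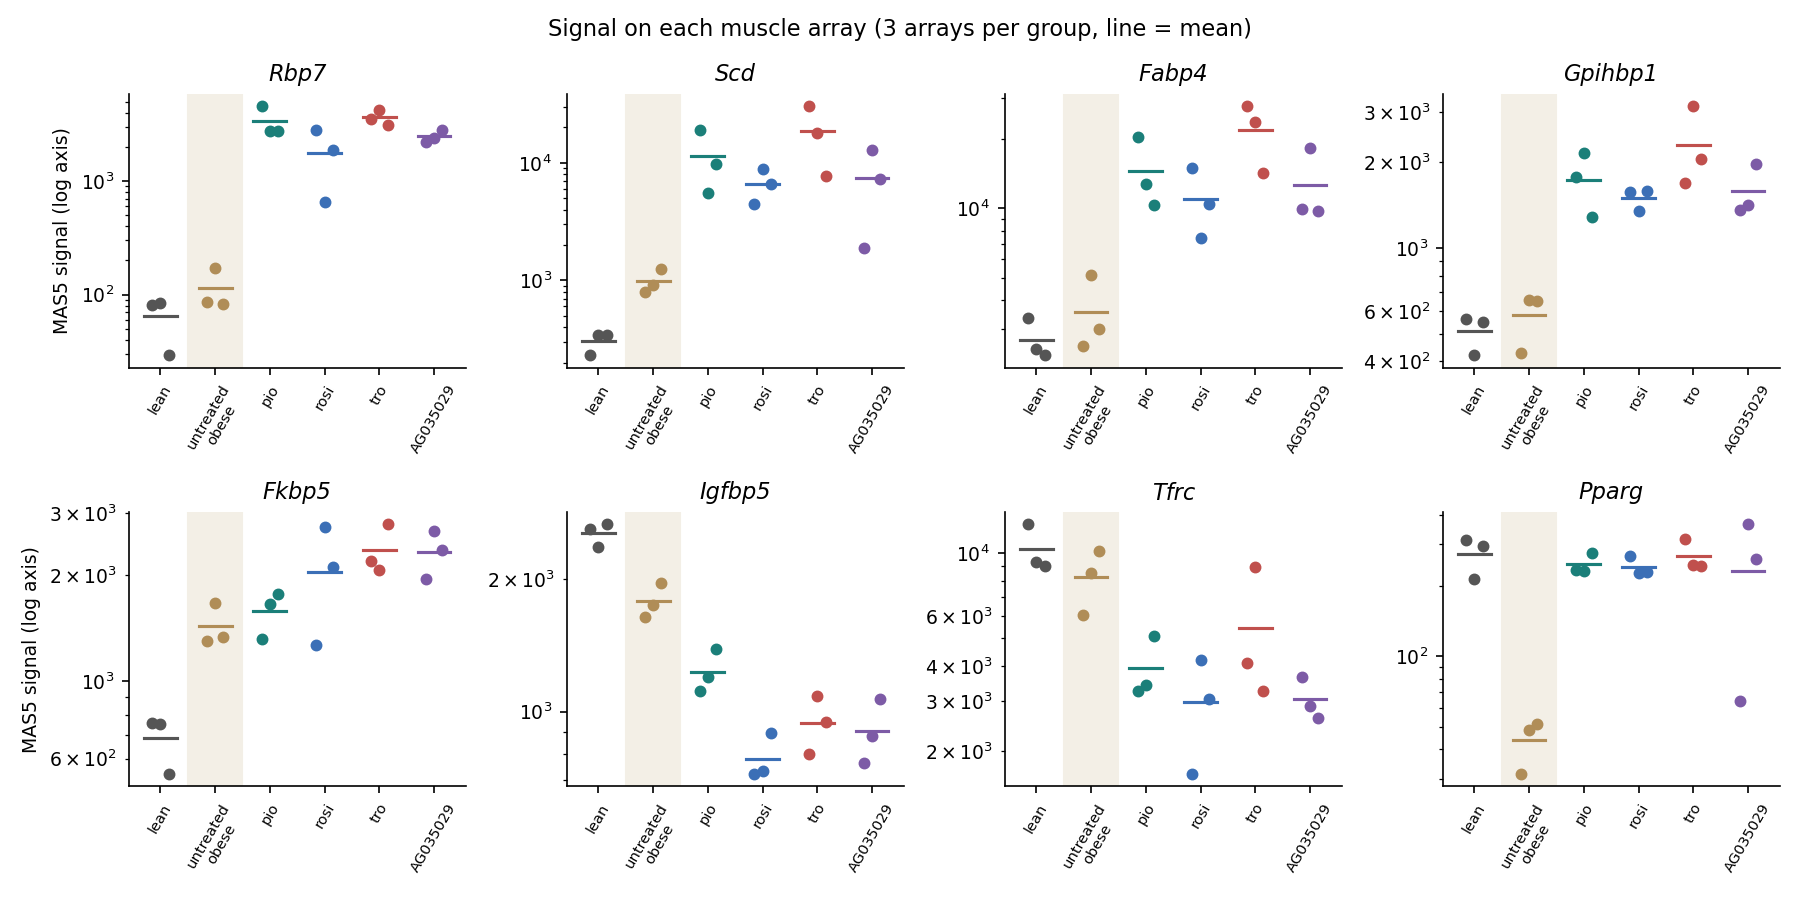
Signals of 8 genes on each muscle array on a log axis, with 1 point per array, a line at each group mean and untreated obese arrays on a shaded ground. Rbp7, Scd, Fabp4 and Gpihbp1 lie above every lean array in all 12 ligand arrays, Igfbp5 and Tfrc lie below every lean array, and Fkbp5 is also high in the untreated obese arrays (1300.1 to 1668.3).

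Some of the genes that deliver fatty acids to the cell and bind them inside it rose. Of 17 tested members of the list for fatty acid uptake and activation, 7 were called higher and 1 lower, with a median of 0.56 against -0.043 over all probe sets. Over all probe sets tested 0.809% were called higher and 0.305% lower, the shares to set beside list counts here and below. Gpihbp1 encodes the capillary protein that holds lipoprotein lipase, and its signals were 562.0, 419.4 and 548.4 in lean arrays, 428.2, 658.6 and 653.7 in untreated obese arrays, and 1281.6 to 3147.2 in ligand arrays, with a median of 1639.9. All ligand arrays lay above all untreated arrays, and the difference from lean was 1.73 ± 0.18 (limma adjusted p = 1.78e-05). Lpl, the lipase itself, rose by 1.28 ± 0.26 (limma adjusted p = 0.015), with lean signals of 2163.4 to 3607.1 and ligand signals of 4578.4 to 15426.0. The groups did not overlap, but 1 untreated obese array reached 6297.7, and the Lpl call was lost without lean array 2 or lean array 3. Slc27a1, a fatty acid transporter, rose by 0.87 ± 0.17 (limma adjusted p = 0.00874), a call lost without lean array 1.

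Angptl4, a secreted inhibitor of lipoprotein lipase, had signals of 292.8, 164.8 and 50 in lean arrays and of 724.8 to 2323.5 in ligand arrays, with a median of 1440.7. The groups did not overlap and the difference was 3.17 ± 0.36 (limma adjusted p = 3.5e-05). Untreated obese arrays held 224.8, 1061.0 and 562.2, so 1 of them lay within the ligand range, and the ligand mean differed from untreated obese muscle by 1.42 without passing the test (limma adjusted p = 0.168). Cd36, the membrane fatty acid translocase, rose by 1.88 ± 0.27 (limma adjusted p = 0.000437), from 912.0 to 2568.2 in lean arrays to 3553.2 to 8038.2 in ligand arrays, and untreated obese array 2 reached 5804.7. Cd36 and Angptl4 thus did not separate ligand arrays from all untreated obese arrays, whereas Gpihbp1 did.

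Among the fatty acid binding proteins, Fabp4 signals were 3341.7, 2442.2 and 2297.9 in lean arrays, 2537.3, 5139.2 and 2982.1 in untreated obese arrays, and 7465.7 to 27775.6 in ligand arrays, with a median of 13466.8. Every ligand array lay above every untreated array, and the difference from lean was 2.38 ± 0.26 (limma adjusted p = 1.78e-05). Fabp5, the epidermal form, held 434.1, 366.6 and 377.9 in lean arrays, 382.8, 487.0 and 395.5 in untreated obese arrays, and 853.8 to 2104.2 in ligand arrays. It too separated all 12 ligand arrays from all 6 untreated ones, with a difference of 1.67 ± 0.18 from lean (limma adjusted p = 1.75e-05). Fabp3, the muscle form, differed by 0.56 and was not called (limma adjusted p = 0.568). The 1 member that fell was Acsl6, an acyl-CoA synthetase, at -0.87 ± 0.12 (limma adjusted p = 0.000329). Its signals were 2490.7 to 3155.4 in lean arrays, 1686.2 to 2073.4 in untreated obese arrays and 1122.6 to 2175.6 in ligand arrays, so untreated obese muscle lay within the ligand range. Of the 7 higher members, 5 were called without the 4 arrays of low slow fibre signal.

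Fatty acid synthesis held the next largest differences, and they varied widely between arrays. Of 15 tested members, 4 were called higher (0.809% over all probe sets) and 0 lower, with a median of 0.79. Scd, the stearoyl-CoA desaturase, had signals of 229.8, 339.9 and 342.6 in lean arrays and 797.9, 914.8 and 1251.5 in untreated obese arrays. They reached 19089.3, 5487.0 and 9697.3 in pioglitazone arrays, 4438.8, 8922.8 and 6617.7 in rosiglitazone arrays, 30433.7, 17990.0 and 7789.0 in troglitazone arrays, and 1899.0, 12913.7 and 7298.1 in AG035029 arrays. The 3 groups did not overlap, and ligand arrays spread from 1899.0 to 30433.7. The difference from lean was 4.78 ± 0.43 (limma adjusted p = 2.43e-06) and that from untreated obese muscle 3.15 (limma adjusted p = 0.00061). Thrsp, a regulator of lipogenesis, rose by 4.67 ± 0.49, 3.94 ± 0.46 and 3.22 ± 0.46 at its 3 probe sets (limma adjusted p = 1.75e-05, 3.5e-05 and 0.000415). Lean signals of the first of these were 16.2 to 50, near background. Fasn, the fatty acid synthase, rose by 4.51 ± 0.62 and 2.67 ± 0.52 at 2 probe sets (limma adjusted p = 0.000257 and 0.00977), and at the first its lean signals were 42.4, 32.9 and 305.0, its untreated obese signals 536.5, 365.4 and 415.8, and its ligand signals 344.6 to 10089.2. AG035029 array 1 (344.6) lay below all untreated obese arrays, and the Fasn difference from untreated obese muscle, 2.36, did not pass the test (limma adjusted p = 0.184).

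Acly, which makes cytosolic acetyl-CoA, rose by 1.96 ± 0.46 (limma adjusted p = 0.0396), overlapped the lean range and lost its call in 17 of 31 alternatives, among them without lean array 1, 2 or 3. Elovl6, a fatty acid elongase, differed by 2.08 without passing (limma adjusted p = 0.131), with ligand signals from 27.9 (AG035029 array 1) to 1059.7 (troglitazone array 1). Srebf1, which encodes the transcription factor of lipogenic genes, differed by 0.42 (limma adjusted p = 0.53). The called members of this list were thus the enzymes Scd, Fasn and Acly together with Thrsp, and the other 11 tested members did not pass.

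Some genes of lipid storage and some of lipid breakdown rose. Of 14 tested members of the triglyceride and lipid droplet list, 5 were called higher and 0 lower, with a median of 0.73. The share called higher over all probe sets was 0.809%. Mgll, monoglyceride lipase, rose at 3 probe sets by 1.97 ± 0.22, 1.94 ± 0.26 and 1.85 ± 0.21 (limma adjusted p = 2.56e-05, 0.000257 and 3.5e-05). At the second of these, lean arrays held 440.3 to 490.4, untreated obese arrays 462.5 to 499.0 and ligand arrays 913.9 to 5758.9, with no overlap. Pnpla2, adipose triglyceride lipase, rose by 1.32 ± 0.17 (limma adjusted p = 0.000131), and Plin4, a lipid droplet coat protein, by 1.03 ± 0.15 (limma adjusted p = 0.000415). For both, untreated obese arrays reached into the ligand range: Plin4 held 1915.6 to 2500.1 in lean, 2888.9 to 4409.7 in untreated obese and 2949.1 to 6568.4 in ligand arrays. Cidea, a lipid droplet fusion protein, rose by 1.74 ± 0.33 (limma adjusted p = 0.00786), a call lost without lean array 1 or lean array 3, and Dgat2, the last enzyme of triglyceride synthesis, by 1.24 ± 0.25 (limma adjusted p = 0.0131), a call lost without lean array 1, 2 or 3. Plin1 and Plin2, other droplet coat proteins, differed by 0.12 and 0.46 and were not called. Without the 4 arrays of low slow fibre signal 3 members were called.

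Aqp7, the glycerol channel of fat cells, had signals of 144.8, 222.5 and 137.3 in lean arrays, 112.7, 378.2 and 368.7 in untreated obese arrays and 521.7 to 2196.5 in ligand arrays, with a median of 781.4. All ligand arrays lay above all untreated arrays, and the difference from lean was 2.28 ± 0.29 (limma adjusted p = 0.000106). Pck1 held 184.6, 207.0 and 325.0 in lean arrays, 106.1, 166.5 and 190.1 in untreated obese arrays and 331.7 to 4057.9 in ligand arrays. Its groups did not overlap, with AG035029 array 1 (331.7) next to the highest lean array, and the difference was 2.12 ± 0.43 (limma adjusted p = 0.013), lost without lean array 1 or lean array 2. Mgst1, a microsomal glutathione transferase, rose by 3.05 ± 0.48 (limma adjusted p = 0.00133), from 163.9 to 506.2 in lean arrays to 639.1 to 9652.5 in ligand arrays. Sult1a1, a phenol sulfotransferase, rose by 1.34 ± 0.16 (limma adjusted p = 4.34e-05), and its untreated obese signals of 1280.9 to 1506.0 lay between the lean range of 709.3 to 847.6 and most of the ligand range of 1388.1 to 2628.5.

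The list of PPAR target genes overlaps the lists above. Of its 24 tested members 7 were called higher (0.809% over all probe sets) and 0 lower, with a median of 0.48. They were Angptl4, Fabp4, Pck1, Cd36, Cidea, Pdk4 and Lpl. Pdk4, the kinase that shuts pyruvate dehydrogenase, rose by 1.63 ± 0.35 (limma adjusted p = 0.0207), with lean signals of 3784.6, 2778.9 and 1309.0, untreated obese signals of 3755.7 to 7342.4 and ligand signals of 3371.5 to 15314.8. The lean and ligand ranges overlapped, and the call was lost without lean array 2 or lean array 3. Members that act in mitochondrial oxidation were not called, such as Cpt1b (0.36 ± 0.16, limma adjusted p = 0.413), the muscle carnitine palmitoyltransferase, and Ucp3 (0.65 ± 0.25, limma adjusted p = 0.303), a mitochondrial carrier. Of the 7 called members, 7 were called without the 3 arrays of high adipocyte signal and 4 without the 4 arrays of low slow fibre signal.

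**Figure D2:**
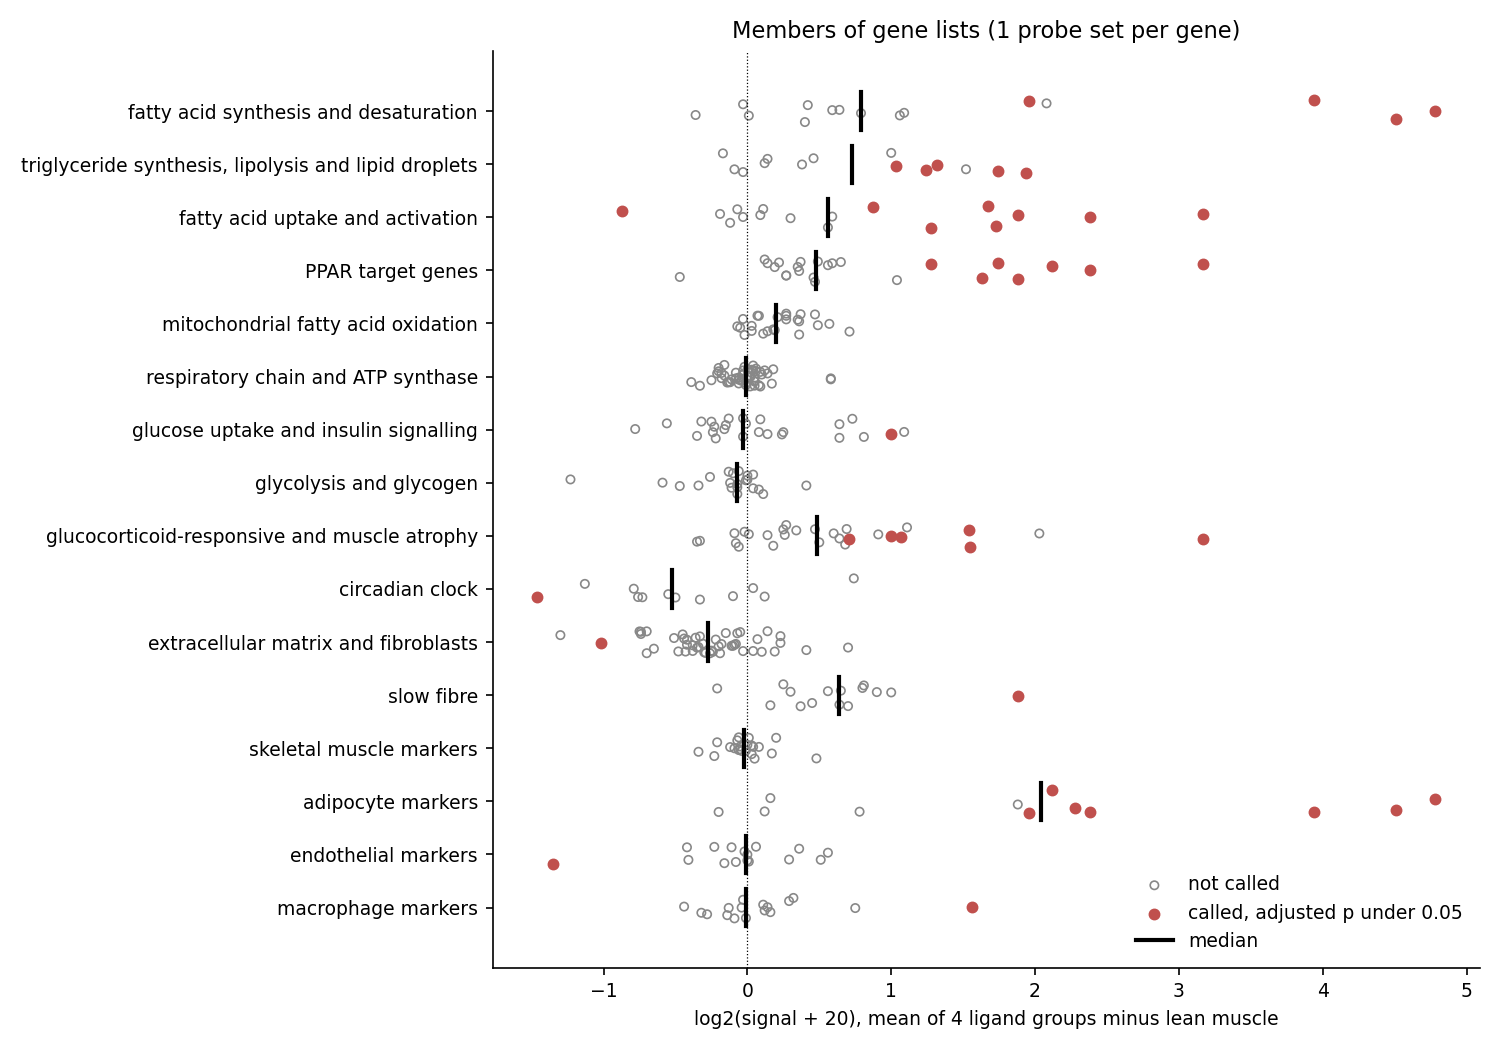
Log2 differences between the ligand mean and lean muscle for the tested members of 16 gene lists, with filled points for called members and a bar at each list's median. The adipocyte markers have the highest median (2.04, over the 12 of 17 that passed the signal filter). The lists of fatty acid uptake, fatty acid synthesis and triglycerides lie between 0.56 and 0.79. The respiratory chain and glycolytic lists lie near the median of all probe sets (-0.043).

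Lists of fuel oxidation and of glucose handling held 0 or 1 called members each. Over all probe sets tested 1.11% were called, so such counts are not particular to these lists. In mitochondrial fatty acid oxidation 0 of 24 were called (median 0.20), in the respiratory chain 0 of 52 (median -0.01), in the citrate cycle 0 of 16 (median -0.12) and in glycolysis and glycogen metabolism 0 of 21 (median -0.07). Slc2a4, the insulin-responsive glucose transporter, differed by 0.24 ± 0.11 (limma adjusted p = 0.435), Hk2, a muscle hexokinase, by 0.73 ± 0.22 (limma adjusted p = 0.132), and Ucp2 by 0.19 ± 0.27. Ppargc1a, a coactivator of mitochondrial biogenesis, differed by 1.49 ± 0.44 (limma adjusted p = 0.132), with overlapping signals of 34.9 to 98.3 in lean and 89.8 to 518.6 in ligand arrays. In glucose uptake and insulin signalling 1 of 25 was called, Foxo1, a transcription factor restrained by insulin. Foxo1 rose by 1.0 ± 0.23 (limma adjusted p = 0.0299), a call lost without lean array 1, 2 or 3, and another of its probe sets differed by -0.21 (limma adjusted p = 0.851). Irs1 lay below the filter, with ligand signals of 20.9 to 154.0. The 95% intervals, which are not adjusted for the number of probe sets, reached a median of 0.408 to either side over all probe sets. Calls used the adjusted p, and Hk2 at 0.73 and Ppargc1a at 1.49 were not called. With 3 lean arrays an uncalled gene may therefore still differ by more than 0.408.

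A minority of the genes that respond to glucocorticoids or act in muscle atrophy rose. Of 28 tested members of the list for glucocorticoid response and muscle atrophy, 6 were called higher and 0 lower, with a median of 0.48. The share called higher over all probe sets was 0.809%. Fkbp5, a chaperone partner of the glucocorticoid receptor, had signals of 760.7, 754.8 and 542.8 in lean arrays, 1300.1, 1668.3 and 1335.1 in untreated obese arrays and 1264.5 to 2790.5 in ligand arrays, with a median of 2090.2. No ligand or untreated obese array reached down to the lean range. The difference between ligand mean and lean was 1.54 ± 0.18 (limma adjusted p = 3.5e-05), whereas untreated obese muscle differed from lean by 1.05 (limma adjusted p = 0.2) and from the ligand mean by less than the test could call (0.49, limma adjusted p = 0.51). Mt2A, a metallothionein, rose by 1.55 ± 0.21 (limma adjusted p = 0.000288) and overlapped the lean range only through pioglitazone array 1 (742.8) and lean array 2 (756.5). Ddit4, an inhibitor of mTOR signalling, rose by 1.07 ± 0.20 (limma adjusted p = 0.00837), a call lost without lean array 3. Its ligand range of 371.7 to 974.4 overlapped the lean range of 215.7 to 381.3 and held the untreated obese signals of 472.4 to 584.1. Glul, glutamine synthetase, rose by 1.06 ± 0.19 and 0.71 ± 0.14 at 2 probe sets (limma adjusted p = 0.00514 and 0.0116), of which the latter call was lost without lean array 1 or lean array 3, and differed by 0.62 at the other (limma adjusted p = 0.228). The other called members were Angptl4 and Foxo1.

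Trim63 and Fbxo32, the ubiquitin ligases of muscle atrophy, were not called for the ligand mean (0.91 ± 0.25 and 1.11 ± 0.34, limma adjusted p = 0.0883 and 0.148). Both were called for troglitazone alone (1.64 and 1.77, limma adjusted p = 0.00646 and 0.0362), where Trim63 held 4339.0, 9484.3 and 13265.3 against 2308.7 to 2818.9 in lean arrays. Untreated obese arrays held 3200.2 to 4966.1 for Trim63. Proteasome subunits had 0 of 26 called, with a median of 0.06. In this list 10 members were called without the 3 arrays of high adipocyte signal and 3 without the 4 arrays of low slow fibre signal.

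Lower transcripts were fewer and came from several functions. Igfbp5, a binding protein of insulin-like growth factors, had signals of 2589.1, 2368.0 and 2657.5 in lean arrays and 1641.1, 1746.6 and 1955.3 in untreated obese arrays. The pioglitazone arrays held 1116.4, 1195.5 and 1383.7, the rosiglitazone arrays 722.0, 731.4 and 892.4, the troglitazone arrays 801.7, 1084.9 and 945.2, and the AG035029 arrays 763.7, 882.2 and 1069.7. The 3 groups did not overlap, with lean highest and ligand lowest. Igfbp5 fell by 1.40 ± 0.12 on the log2 scale against lean (limma adjusted p = 2.15e-06), and the ligand mean lay below untreated obese muscle by -0.89 (limma adjusted p = 0.00061). Another Igfbp5 probe set differed by -0.49 and was not called (limma adjusted p = 0.751), and the remaining one lay near background.

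Aqp1, the water channel of capillaries and red cells, held 2734.3, 2117.4 and 1759.8 in lean arrays, 1854.1, 2930.8 and 1698.0 in untreated obese arrays and 616.2 to 1287.1 in ligand arrays, with a median of 845.2. All ligand arrays lay below all untreated arrays. It fell by 1.35 ± 0.18 on the log2 scale (limma adjusted p = 0.000224), and a further probe set fell by 1.05 ± 0.20 (limma adjusted p = 0.00707). Of 16 tested endothelial markers Aqp1 was the 1 called, where 1.11% were called over all probe sets, with a list median of -0.01. The summed signal of the endothelial list ran from 10504 to 12016 in lean, 9250 to 12136 in untreated obese and 8432 to 16303 in ligand arrays.

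Tfrc, the transferrin receptor that brings iron into cells, held 12660.4, 9322.1 and 9026.1 in lean arrays, 6069.0, 8557.9 and 10200.4 in untreated obese arrays and 1655.2 to 8980.6 in ligand arrays, with a median of 3348.9. Troglitazone array 2 held the 8980.6, just below the lowest lean array, and the other 11 ligand arrays lay at or under 5082.7. Tfrc fell by 1.52 ± 0.26 and 1.31 ± 0.24 on the log2 scale at 2 probe sets (limma adjusted p = 0.00305 and 0.00584). Smad3, a mediator of transforming growth factor beta signals, held 907.4 to 1530.4 in lean, 757.3 to 965.9 in untreated obese and 369.5 to 686.9 in ligand arrays. It fell by 1.14 ± 0.19 on the log2 scale (limma adjusted p = 0.00173), a call lost without lean array 3 (limma adjusted p = 0.0547). Creb3l1, a transcription factor of collagen secretion, fell by 1.04 ± 0.22 on the log2 scale (limma adjusted p = 0.0163), lowest with troglitazone (85.6 to 113.9 against 358.9 to 462.8 in lean arrays), a call lost without lean array 1, 2 or 3. Its untreated obese signals of 240.1 to 315.8 lay within the ligand range of 85.6 to 352.3.

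Dbp, a transcription factor that follows the circadian clock, fell by 1.46 ± 0.33 on the log2 scale (limma adjusted p = 0.0328), a call lost without lean array 1, 2 or 3. Dbp signals were 618.2 to 899.8 in lean, 337.3 to 563.7 in untreated obese and 51.0 to 746.0 in ligand arrays. The ligand range thus overlapped the lean range and held all untreated obese arrays. Its difference was -0.38 for pioglitazone, -2.39 for rosiglitazone, -1.99 for troglitazone and -1.09 for AG035029. Of 12 tested clock genes Dbp was the 1 called, where 1.11% were called over all probe sets, and the list median was -0.52. Of 48 extracellular matrix and fibroblast genes 1 was called lower, Lum, a collagen-binding proteoglycan, at -1.02 ± 0.24 (limma adjusted p = 0.0438), a call lost in 19 of 31 alternatives, among them without lean array 1, 2 or 3. The share called lower over all probe sets was 0.305%. The matrix list median was -0.27, and its count ran from 0 to 6 over the alternatives. Its summed signal was 93130 to 118997 in lean, 84436 to 102771 in untreated obese, 96290 to 107346 in pioglitazone, 64667 to 76406 in rosiglitazone, 73845 to 107389 in troglitazone and 65408 to 71753 in AG035029 arrays.

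Several called genes stood outside these groups. Insig1, which holds back sterol regulatory proteins, was the 1 called of 7 tested genes of cholesterol synthesis, whose median was 0.01. It rose by 1.27 ± 0.27 (limma adjusted p = 0.0225), from 375.5 to 454.3 in lean arrays to 585.4 to 2670.5 in ligand arrays, a call lost without lean array 1, 2 or 3. Car4, a membrane carbonic anhydrase, rose by 1.91 ± 0.34 (limma adjusted p = 0.0052), from 38.4, 59.7 and 202.7 in lean arrays to 220.7 to 571.3 in ligand arrays, a call lost without lean array 2 or lean array 3. Cavin3, a coat protein of caveolae, rose by 0.58 ± 0.13 (limma adjusted p = 0.0269) with no overlap of its lean range of 1291.9 to 1413.3 and its ligand range of 1598.3 to 3084.7, and its call too was lost without lean array 1, 2 or 3. Herpud1, a gene of endoplasmic reticulum stress, rose by 0.76 ± 0.17 (limma adjusted p = 0.0249), a call lost without lean array 1 or lean array 3.

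Some adipocyte markers rose, and others did not pass the test. Of 21 listed markers 17 were on the array and 12 were tested. Of those 12, 7 were called higher (0.809% over all probe sets) and 0 lower, with a median of 2.04. The 7 were Scd, Fasn, Thrsp, Fabp4, Aqp7, Pck1 and Acly, of which all but Aqp7 also stand in other lists above. The signal filter used the mean over all 18 muscle arrays, 12 of them ligand arrays. A marker near background in lean muscle could pass it through its ligand signals, as with Fasn (medians 42.4 and 1766.8). The median of 2.04 thus holds for the markers that passed and not for all 17. The summed signal of the 17 markers was 5237 to 5936 in lean, 5857 to 8816 in untreated obese and 15004 to 99021 in ligand arrays, lowest in AG035029 array 1. With Fabp4, Fasn, Acly, Thrsp and Scd left out of the sum, the other 12 markers reached 1733 to 2487 in lean, 1411 to 1814 in untreated obese and 1832 to 13330 in ligand arrays, with a ligand median of 4034. AG035029 array 1 (1832) then lay within the lean range. Adipose tissue arrays of this series reached 45101 to 65239 for the same sum.

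Of these 12 markers 3 lay above all lean arrays in all ligand arrays, namely Aqp7, Pck1 and Lipe, hormone-sensitive lipase. Over all tested probe sets, which leave out some of the 12, 0.945% did. The ligand median was above the lean median for 8 of the 12, and the medians of 3, Lep, Acvr1c and Cebpa, lay under 50 in lean and ligand muscle. Plin1, the droplet coat protein of adipocytes, and Cfd, adipsin, differed by 0.12 and 0.78 and were not called. As a share of the level in ligand-treated adipose tissue at the same probe set, muscle medians of the 12 markers ran from 0.772% to 22.6%, with a median of 7.01%. The upper part of that range came from markers with much the same share in lean muscle. They were Adrb3 (22.6% with ligand, 21.8% in lean muscle), Pparg (17.6% and 21.3%) and Plin1 (16.6% and 16.7%). Aqp7, Pck1 and Lipe stood at 7.88%, 10.4% and 2.43%, against 1.46%, 2.06% and 0.356% in lean muscle. Many called lipid genes had shares inside the full range of the 12 markers, such as Acly at 6.26%, Mgll at 9.16% and 15.5%, Cidea at 9.97%, Thrsp at 10.3% to 15.1%, Fasn at 11.2%, Mgst1 at 14.8%, Fabp5 at 17.8% and Pnpla2 at 19.6%. Of these, Fasn, Mgst1, Fabp5 and Pnpla2 lay above the shares of Aqp7, Pck1 and Lipe. Others lay above the full range, such as Angptl4 at 23.9%, Scd at 48.7%, Gpihbp1 at 57.5%, Rbp7 at 60%, Cd36 at 64.7%, Plin4 at 70.1% and Fabp4 at 85.4%. Lean muscle already held 36.4% for Plin4, 19.2% for Gpihbp1, 16.7% for Cd36 and 15.5% for Fabp4. It held 2.73% for Angptl4, 1.98% for Scd and 1.76% for Rbp7. In AG035029 array 1 the sum of the 12 markers lay in the lean range, although Aqp7 (521.7), Lipe (113.1) and Pck1 (331.7) lay above all lean arrays. In the same array Rbp7 held 2205.0, Gpihbp1 1354.5, Fabp5 891.7, Aqp1 680.0 and Igfbp5 763.7, each on the ligand side of every lean array. Scd, Fasn and Elovl6 had their lowest ligand signals in that array. Scd there still lay above all untreated arrays. Fasn (344.6 at its probe set of larger difference) lay above all lean but below all untreated obese arrays. Without the 3 arrays of highest adipocyte signal Rbp7 differed by 4.90, Scd by 4.40, Fabp4 by 2.17, Gpihbp1 by 1.69 and Igfbp5 by -1.38. These arrays were picked by the sum of 17 markers, which includes Scd and Fabp4. For Scd and Fabp4 the change is thus partly fixed by that choice. What part adipocytes in the samples had in the called lipid genes was not tested.

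Slow fibre genes had 1 of 15 tested members called, Cd36, and a median of 0.64. Summed slow fibre signals ran from 77862 to 137370 in lean, 47427 to 210813 in untreated obese and 74277 to 245532 in ligand arrays. Myh7, the slow myosin heavy chain, differed by 0.37 ± 0.60 (limma adjusted p = 0.879), with ligand signals from 5648.4 to 37206.6. Among 17 macrophage markers 1 was called, Gpnmb, a glycoprotein of lipid-loaded macrophages, which rose by 1.56 ± 0.28 (limma adjusted p = 0.0057). Gpnmb signals were 52.7 to 179.6 in lean, 244.0 to 406.4 in untreated obese and 140.1 to 498.0 in ligand arrays, so untreated obese muscle lay within the ligand range, and the call was lost without lean array 2 or lean array 3. The macrophage list sum was 7503 to 8729 in lean and 6604 to 11987 in ligand arrays.

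**Figure D3:**
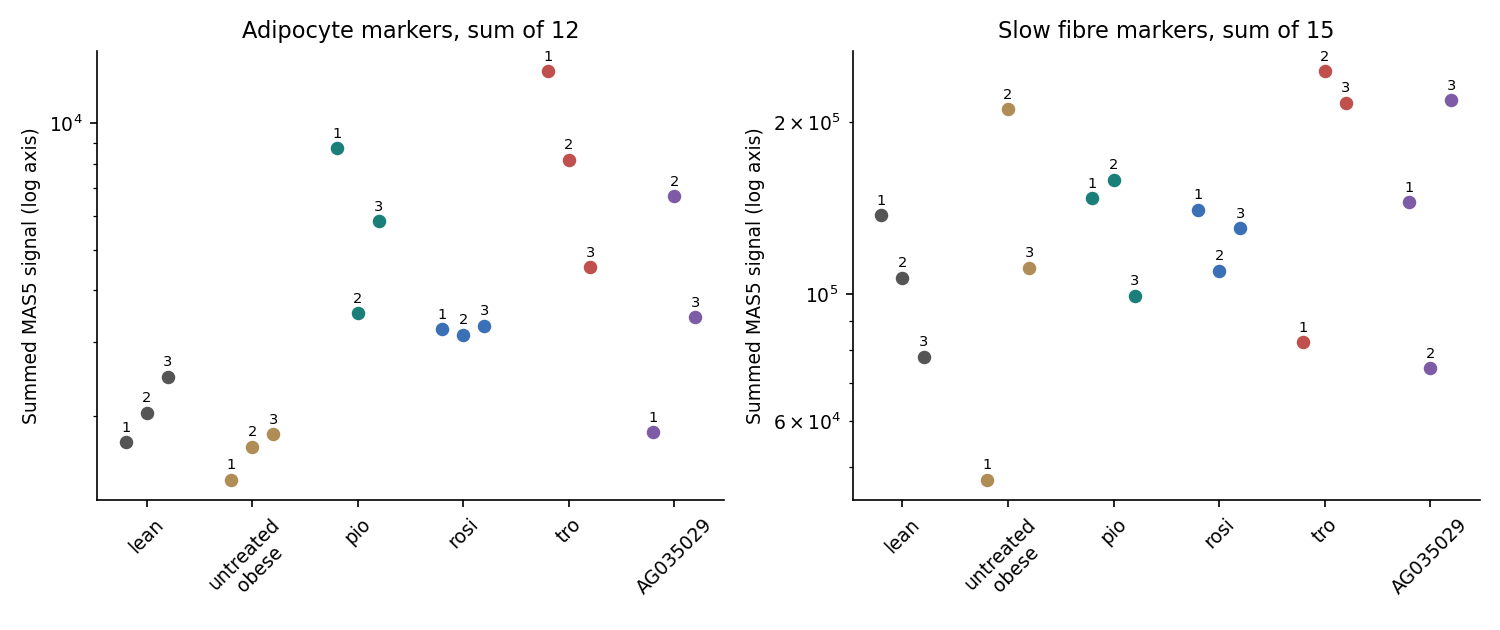
Summed signal on each muscle array of 12 adipocyte markers and of 15 slow fibre markers, with arrays numbered within their groups. Adipocyte sums are 1733 to 2487 in lean arrays and highest in troglitazone array 1 (13330), and slow fibre sums overlap between all groups.

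Each ligand was also set against the same 3 lean arrays, which these comparisons therefore share. Pioglitazone had 32 probe sets higher (0.336%) and 4 lower (0.042%), together 0.378% of those tested. Rosiglitazone had 29 higher (0.305%) and 20 lower (0.21%), together 0.515%. Troglitazone had 114 higher (1.2%) and 48 lower (0.504%), together 1.7%. AG035029 had 44 higher (0.462%) and 38 lower (0.399%), together 0.861%. A probe set was called in 1 direction for all 4 ligands in 23 cases (0.242%), 21 higher and 2 lower. The named ones were Angptl4, Aqp7, Cd36, Fabp4, Fabp5, Fasn, Fkbp5, Gpihbp1, Mgll, Mt2A, Pnpla2, Rbp7, Scd, Sult1a1 and Thrsp on the higher side, with Igfbp5 and Aqp1 on the lower. For Rbp7 the difference from lean was 5.35 for pioglitazone, 4.25 for rosiglitazone, 5.49 for troglitazone and 4.94 for AG035029. For Scd the differences in the same order of ligands were 4.98, 4.33, 5.67 and 4.15. Gpihbp1 differed by 1.71, 1.53, 2.09 and 1.59, and Igfbp5 by -1.03, -1.68, -1.42 and -1.48. Counts for single ligands moved with single arrays: 87 for troglitazone without its array 2, 21 for pioglitazone without its array 3, 25 and 27 for rosiglitazone without its array 2 or 3, and 45 and 36 for AG035029 without its array 2 or 3. Without lean array 1, 2 or 3 they were 30, 23 and 24 for rosiglitazone, 131, 100 and 96 for troglitazone, 30, 38 and 36 for AG035029, and 27, 22 and 24 for pioglitazone. The AG035029 count was 44 without rosiglitazone array 3.

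The lists were spread over the ligands as follows, with the lean arrays again shared. Of the 12 tested adipocyte markers troglitazone had 8 called and pioglitazone, rosiglitazone and AG035029 had 5 each. In fatty acid uptake the higher calls numbered 6, 5, 8 and 5 for pioglitazone, rosiglitazone, troglitazone and AG035029, in PPAR targets, in the same order, 3, 3, 9 and 3, and in fatty acid synthesis 3, 3, 6 and 3. In the glucocorticoid and atrophy list they numbered 3, 4, 11 and 7. Lower calls in the matrix list numbered 0, 3, 0 and 3. Troglitazone thus had the highest count in each of these lists except the matrix list, its arrays 1 and 2 also had the highest adipocyte marker sums, and its count over all probe sets was 75 without the 3 arrays of high adipocyte signal. Whether the ligands differ in these counts was not tested. Untreated obese muscle had 0 calls in all of these lists, but over all probe sets tested it had only 2 (0.021%). Its medians against lean were 0.05 for adipocyte markers, 0.17 for fatty acid uptake and 0.35 for PPAR targets. They were 0.06 for fatty acid synthesis, 0.27 for the glucocorticoid and atrophy list and -0.08 for the matrix list.

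**Figure D4:**
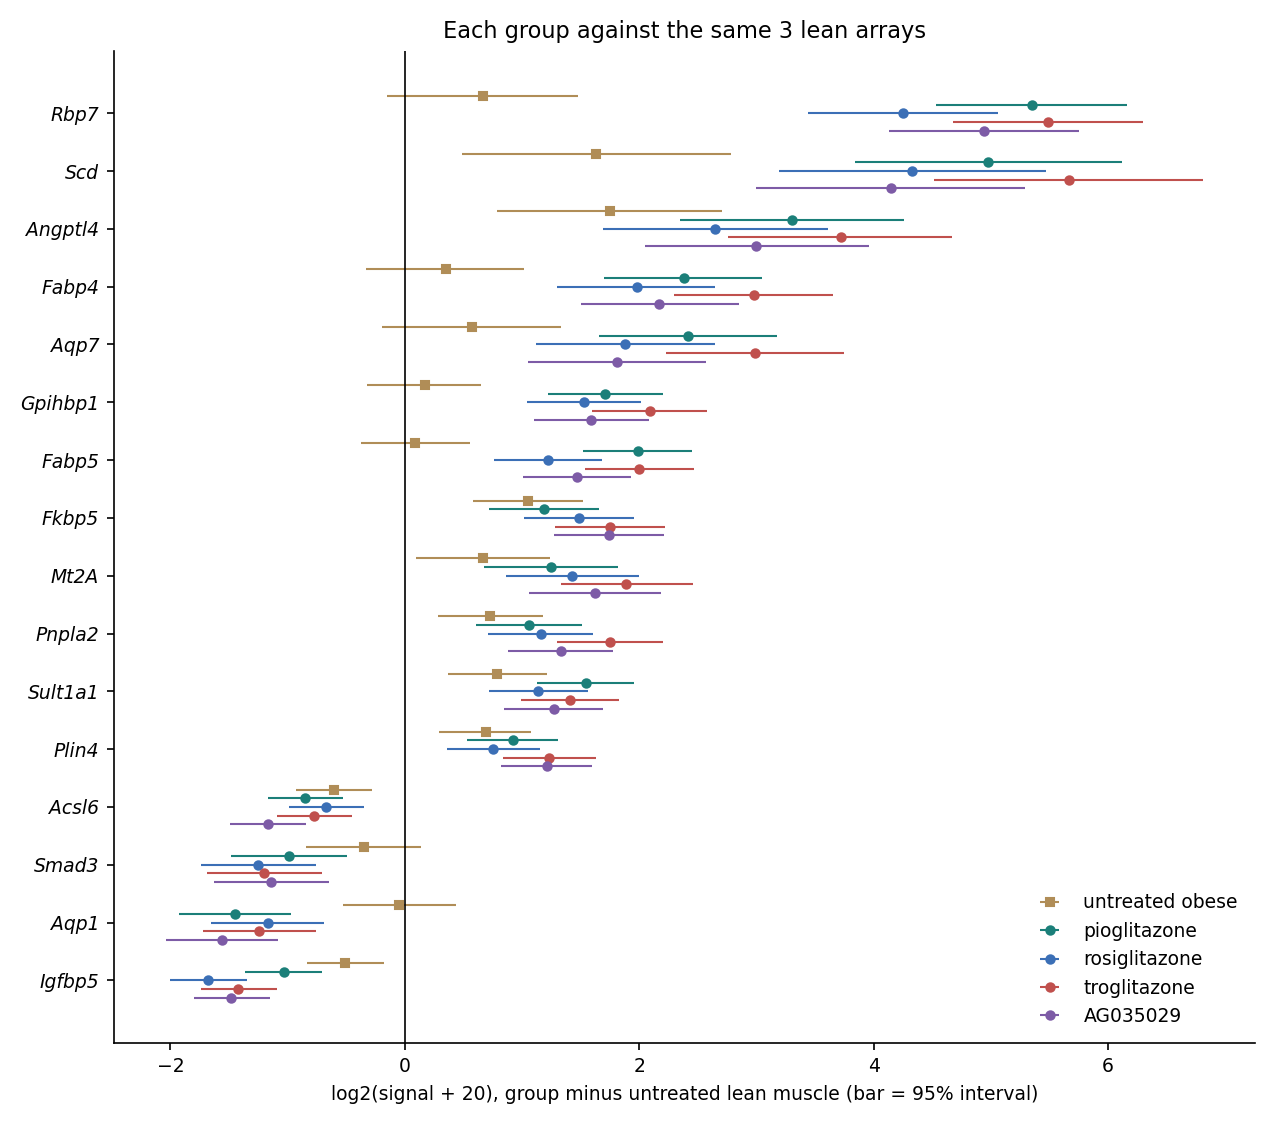
Log2 differences from lean muscle of 16 genes, with 95% intervals, for untreated obese muscle and for each of the 4 ligands, which share the 3 lean arrays. For Rbp7 the ligands lie between 4.25 and 5.49 and untreated obese muscle at 0.67, whereas for Fkbp5 untreated obese muscle (1.05) lies close to pioglitazone (1.19).

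Differences between the ligands themselves were few. In an F-test over all 4 ligands 0 probe sets were called by limma, while 921 had an unadjusted p under 0.05. Over the 6 pairs of ligands 5 differences were called, with p-values adjusted over the probe sets of each pair, and doses and times are not given, so the compounds cannot be matched on either. Vim, the intermediate filament vimentin, held 6515.9, 8149.2 and 6896.8 with troglitazone, 2771.5, 3331.3 and 4333.8 with rosiglitazone and 2855.2, 4171.2 and 4094.9 with AG035029, against 3139.6 to 3538.5 in lean arrays. Troglitazone arrays lay above all of these. Rosiglitazone minus troglitazone was -1.06 ± 0.16 (limma adjusted p = 0.0252), the 1 call of that pair (0.0105%), and troglitazone minus AG035029 was 0.97 ± 0.16 (limma adjusted p = 0.0435), 1 of 2 calls of that pair (0.021%). Rgma, a membrane guidance molecule, held 422.3, 203.6 and 267.1 with troglitazone and 1054.8, 830.0 and 819.9 with AG035029, a difference of -1.59 ± 0.27 (limma adjusted p = 0.0435). Rgma in AG035029 arrays lay near the lean signals of 882.7 to 976.3.

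Pioglitazone and rosiglitazone differed at 2 probe sets (0.021%). Ins1 held 61.4, 65.1 and 59.9 with pioglitazone and 247.7, 296.8 and 208.8 with rosiglitazone (-1.71 ± 0.28, limma adjusted p = 0.0352), and lean arrays held 208.0 to 277.0. Ins1 encodes insulin and has a near-identical paralog, Ins2, so which gene the probe set reads in muscle is uncertain. Ly6e, a small membrane-anchored protein, held 1119.7, 1182.9 and 1215.2 with pioglitazone and 483.3, 300 and 477.9 with rosiglitazone (1.47 ± 0.24, limma adjusted p = 0.0352). Pioglitazone against troglitazone, pioglitazone against AG035029 and rosiglitazone against AG035029 had 0 calls each by limma (0%), with 684, 731 and 675 probe sets at an unadjusted p under 0.05. These calls were fragile: each of the 5 was lost in 10 to 24 of its alternatives, and the calls over all pairs numbered 84 without troglitazone array 3, 21 without troglitazone array 1, 10 without AG035029 array 2 and 0 without rosiglitazone array 2. Most other single arrays left 1 to 3. For Rbp7 the interval of rosiglitazone minus troglitazone was -2.05 to -0.43 and for Fabp4 -1.67 to -0.32, neither called (limma adjusted p = 0.337 and 0.35), so the intervals allow differences of that size between ligands.

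The other genes of lowest p in the F-test did not pass it. Serpine2, a protease inhibitor, held 1103.0 to 1600.0 with pioglitazone, 1028.8 to 1072.9 with rosiglitazone, 575.2 to 825.1 with troglitazone and 682.1 to 826.5 with AG035029 (limma F-test adjusted p = 0.116). Fbxl19, an F-box protein, held 20.2, 26.9 and 39.3 with AG035029, near background, and 98.7 to 353.2 in the arrays of the other ligands (limma F-test adjusted p = 0.116). Col4a1, a basement membrane collagen, held 491.9 to 696.9 with rosiglitazone and 450.2 to 576.0 with AG035029, below pioglitazone (856.5 to 1259.5) and troglitazone (792.8 to 1144.4), at a limma F-test adjusted p of 0.116. For these genes the arrays of some ligands did not overlap, but over 9519 probe sets the F-test called none of them.

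Untreated obese muscle was set against the same lean arrays as a reference. It had 2 probe sets called (0.021%), 1 of them named, the immediate early gene Fos at -2.36 (limma adjusted p = 0.0194), while 464 had an unadjusted p under 0.05. Its 95% intervals are wider, with a median of 0.516 to either side, since 3 arrays stand against 3. The 2 calls were lost without lean array 3, untreated obese array 1 or untreated obese array 3. A comparison of the ligand mean with untreated obese muscle, added after the data were seen, had 21 probe sets higher (0.221%) and 2 lower (0.021%), together 0.242%, and 17 of the 77 higher and 2 of the 29 lower probe sets against lean were called there too. Both comparisons use the same ligand arrays and the same estimate of the spread. Calls in both are therefore partly built in and are no independent support. The named ones called in both were Rbp7, Scd, Thrsp, Fabp4, Fabp5, Gpihbp1, Mgll, Aqp7, Pck1, Mgst1, Insig1, Tinagl1, Igfbp5 and Aqp1. Angptl4, Fasn, Cd36, Fkbp5, Pdk4, Gpnmb and Acsl6 were called against lean and not against untreated obese muscle. This count was 14 without untreated obese array 1 and 37 without untreated obese array 2, and 45 without troglitazone array 3.

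The same contrast in the other tissues differed from that in muscle. In a joint fit of all 54 arrays over 11520 probe sets, the ligand effect against lean differed between muscle and adipose tissue at 756 probe sets (6.56%) and between muscle and liver at 227 (1.97%), and 47 and 37 of the 106 muscle calls were among them. Rbp7 differed from lean by 5.01 ± 0.31 in muscle, 0.91 ± 0.31 in adipose tissue and 1.11 ± 0.31 in liver. Its adipose signals were already 1856.8 to 2982.8 in lean rats, close to the ligand level in muscle, and rose to 2696.8 to 6080.7 with ligands, while liver stayed at or under 243.3. Scd differed by 4.78 ± 0.39 in muscle, 0.46 ± 0.39 in adipose tissue and 1.91 ± 0.39 in liver (muscle minus adipose 4.32, limma adjusted p = 7.78e-07). In liver it was highest in untreated obese rats, at 21367.2 to 35786.0, against 1374.5 to 4302.9 in lean and 2588.5 to 22535.9 in ligand arrays. Thrsp rose in muscle and differed by 0.77 and 0.24 in adipose tissue and liver at the probe set of largest muscle difference, neither called.

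Aqp7 differed by 2.28 in muscle, 0.67 in adipose tissue and 0.00 in liver, and the muscle minus liver difference was 2.28 (limma adjusted p = 1.4e-05). Tfrc fell in muscle and differed by 0.47 in adipose tissue and -0.01 in liver, and its adipose signals were lower than in muscle, at 516.4 to 644.8 in lean and 606.6 to 1247.0 in ligand arrays (muscle minus adipose -1.99, limma adjusted p = 9.24e-06). Fabp5 rose in all 3 tissues, by 1.67, 1.05 and 1.36, and its muscle difference was not distinguishable from adipose tissue (0.62, limma adjusted p = 0.405) or liver (0.31, limma adjusted p = 0.783). Its untreated obese signals differed by tissue. In liver they were 1833.9 to 2658.3, within the ligand range of 621.5 to 3958.2 and above the lean range of 702.2 to 760.2. In adipose tissue they were 4190.4 to 6859.0 and overlapped the ligand range of 4957.5 to 8013.3. In muscle they were 382.8 to 487.0, below all ligand arrays. Fkbp5 rose by 1.54, 0.73 and 1.14 in muscle, adipose tissue and liver. Igfbp5 fell in muscle and adipose tissue, at -1.40 and -1.89, with adipose signals of 3757.7 to 4167.4 in lean and 819.5 to 1701.4 in ligand arrays, and the muscle minus adipose difference of 0.48 was not called (limma adjusted p = 0.328). Aqp1 fell in muscle and adipose tissue, at -1.35 and -1.11. Pdk4 rose in both as well, by 1.63 and 2.36.

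**Figure D5:**
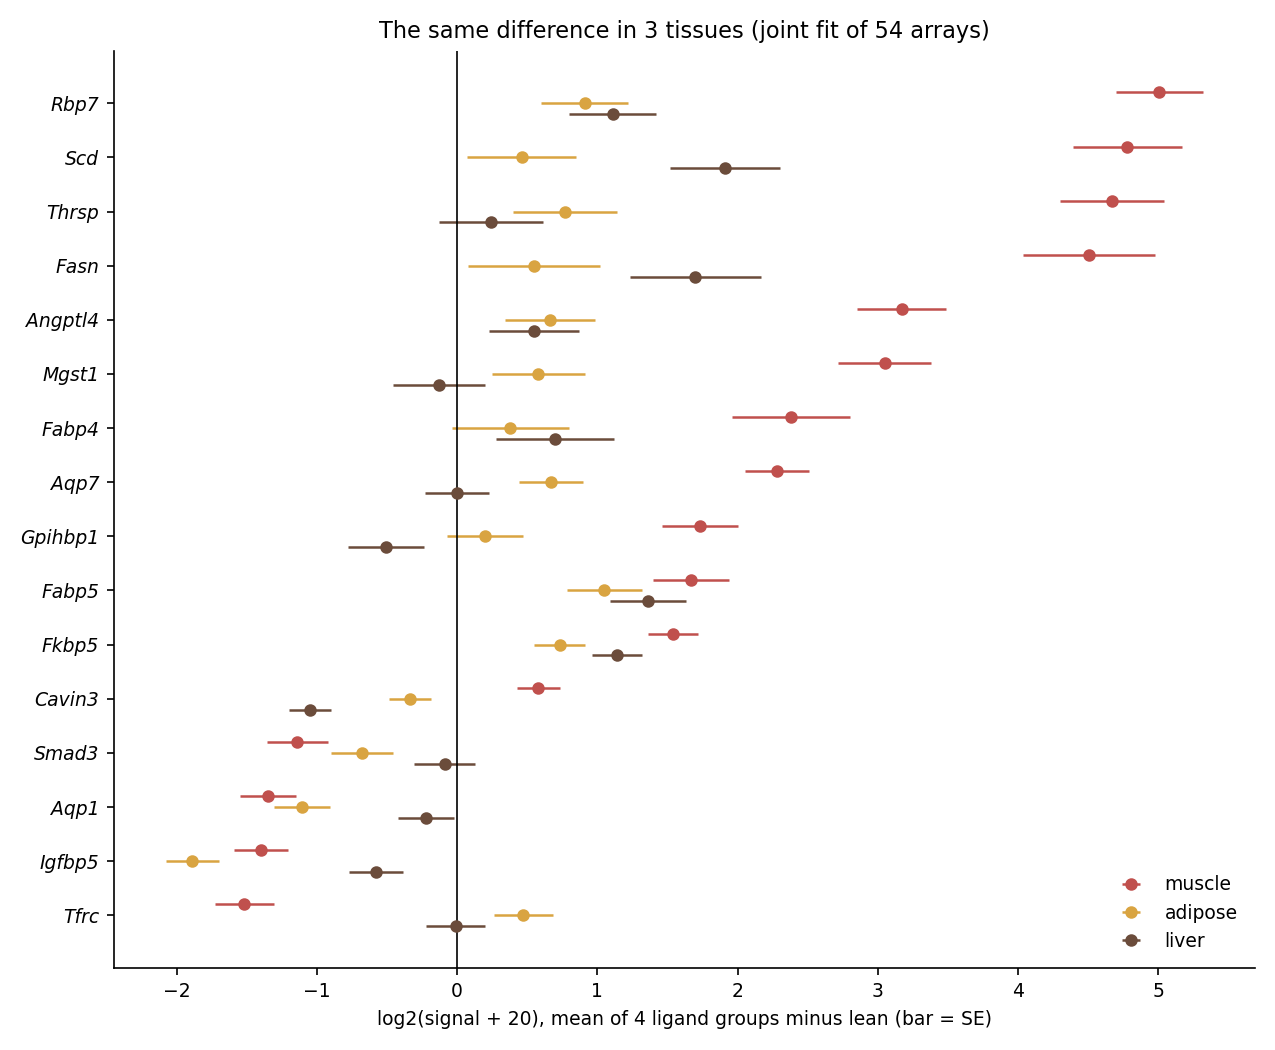
Log2 differences between ligand-treated obese and lean rats, with SE, of 16 genes in muscle, adipose tissue and liver from the joint fit. Rbp7, Scd and Thrsp lie at 4.67 or above in muscle and at 1.91 or below in the other tissues, Fabp5 and Fkbp5 lie above 0 in all 3 tissues, and Igfbp5 lies below 0 in all 3.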

How the data were processed

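Gastrocnemius RNA was hybridised to Affymetrix Rat Expression 230A arrays, with RNA of 2 rats pooled per array and 3 arrays per group per the labels, so p-values measure the spread between these pools. The deposited values are linear MAS5 signal intensities, per the submitters' processing notes, scaled by the authors so that the trimmed mean of each array is about 500. The file holds no detection calls.

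Control probe sets (57 of 15923) were dropped. In the platform annotation 12783 of the remaining 15866 carry 1 gene symbol, 312 several and 2771 none. The values were used as log2(signal + 20). Probe sets whose mean over the 18 muscle arrays lay above the 40th percentile (9519) were fitted with 1 mean for each of 6 groups by limma 3.58.1 in R 4.3.3, with an intensity trend, 12 residual degrees of freedom and Benjamini-Hochberg adjustment. The ligand mean is the mean of the 4 ligand groups. A joint fit of 54 arrays gave the differences between tissues. The script was tested on simulated data. Other added constants, filters, normalizations, fits, a replicate block and arrays left out were tried.

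Named genes were those with the 10 largest called rises and falls without overlap, up to 4 called per gene list, the 6 genes of lowest p in the F-test, at most 2 calls per direction in each ligand pair, the 10 most certain calls for all 4 ligands, 5 for each tissue difference, and 18 fixed genes. Rbp4, Pck1, Lpl, Dgat2, Slc27a1, Retsat, Car4, Trim63, Fbxo32, Fos and uncalled list members were chosen after their values were seen. The groups, gene lists and rules were chosen with earlier results of these data known.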

Additional observations from a re-analysis of the deposited data

Results flagged for a closer look

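The ligand effect against lean rats differed between tissues by the test of the difference itself in the joint limma fit. It was called at 756 probe sets for muscle minus adipose tissue, including Rbp7 (4.09), Scd (4.32), Thrsp (3.9 and 3.49 at 2 probe sets) and Tfrc (-1.99). It was called at 227 for muscle minus liver, including Rbp7 (3.9), Thrsp (4.43 and 3.56), Aqp7 (2.28) and Cavin3 (1.62), a caveolar coat protein that was higher than lean in muscle and lower in liver.

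Pairs of ligands differed by limma's test at Ins1 (pioglitazone minus rosiglitazone, -1.71), Ly6e (pioglitazone minus rosiglitazone, 1.47), Vim (rosiglitazone minus troglitazone, -1.06, and troglitazone minus AG035029, 0.97) and Rgma (troglitazone minus AG035029, -1.59).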

How the results depend on the processing

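Of 51 named gene results called for the ligand mean against lean, 24 kept the call in all alternatives run for them, up to 31, and 27 lost it in at least 1. The count of calls for the ligand mean (106, with 77 higher and 29 lower) was 196, 120 and 76 with array weights and 52, 42 and 10 at an adjusted p under 0.01. Median centring left 18 lower, and without the 4 arrays of low slow fibre signal the counts were 53, 42 and 11. These sets of arrays, and the comparison with untreated obese muscle, were chosen after seeing the data. Pioglitazone (36) had 20 calls with no trend, 67 with weights and 22 at 0.01. Rosiglitazone (49) had 24 with no trend, 116 with weights, 18 at 0.01 and 31 without the 4 arrays. Troglitazone (162) had 87 at 0.01, 75 without the 3 arrays of high adipocyte signal and 107 without the 4. AG035029 (82) had 43 with no filter, 32 with no trend, 133 with weights, 26 at 0.01 and 33 without the 4. Untreated obese muscle (2) had 1 with no filter, with median centring and without the 4 arrays, 0 with no trend and at 0.01, and 5 in a fit of its 6 arrays. The F-test among ligands (0) gave 2 with an added constant of 5, 1 with no trend, 4 without the 3 arrays and 18 without the 4. The 6 pairs (5) gave 3 with a constant of 80, 1 with no filter, quantile normalization, median centring or only 15 arrays, 2 with no trend, 0 at 0.01, 8 without the 3 arrays and 32 without the 4.

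Leaving out 1 array at a time gave 45 to 126 calls for the ligand mean (36 to 86 higher, 8 to 42 lower), 21 to 50 for pioglitazone, 23 to 65 for rosiglitazone, 87 to 216 for troglitazone, 30 to 109 for AG035029, 0 to 4 for untreated obese muscle, 14 to 45 for the ligand mean against untreated obese muscle, 0 to 38 for the F-test and 0 to 84 for the 6 pairs. 3 uncalled differences changed sign. Ly6e was 0.03 with median centring and ran from -0.17 (without lean array 3) to 0.19 over single arrays left out, at 0.19 without lean array 2, 0.04 without rosiglitazone array 2 and 0.05 without troglitazone array 3. Lepr ran from -0.20 to 0.17, at -0.20 without lean array 1, -0.06 without pioglitazone array 1 and without the 3 arrays, -0.01 without pioglitazone array 2, -0.04 without rosiglitazone array 3 and -0.02 without AG035029 array 1. Ppard was -0.07 without lean array 2. The cause of these moves was not tested.

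Arrays of different groups share replicate numbers in the labels. Residuals of same-numbered arrays correlated at a mean of 0.0117 (-0.101 to 0.199, with 3 of 45 pairs over 0.1), against -0.00587 for different numbers, so the numbers were not taken as pairs. With the replicate number as a block, the ligand mean had 79 higher and 37 lower and the F-test 2. Signals near background, such as lean Rbp7, limit how exactly large differences are known.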
